A study of Mus musculus with 4 samples.

Results

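Among the small RNAs held by the Ago proteins of mouse brain, the shortest ones that still carried the name of a miRNA were examined, as trimmed forms of these miRNAs. The members are all sequences of the deposited table that had a miRNA name and a length of 15 to 18 nt. There were 791 of them, out of 40045 sequences with a miRNA name and 85704 sequences in all. Every member was exactly 18 nt long, because no sequence of 15, 16 or 17 nt carried a miRNA name. They came from 316 of the 1029 miRNA names, 228 of them had a mean of at least 1 CPM (the reads of a library scaled to a total of 1e6), and 400 were read in all 4 libraries. Members of 1 miRNA overlap in sequence and come from the same libraries, so they are not replicates of each other.

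The study asked how the content of the RISC changes in ageing and Alzheimer's disease models. The libraries used here are Ago-RP-Seq libraries from combined cortex and hippocampus of C57BL/6J mice, 2 from 2-month-old and 2 from 18-month-old males with no transgene and no treatment. Ago1-4 were pulled out of the lysate of tissue (250 mg per the labels) with a GW182 peptide, and RNA of 19 to 35 nt was extracted from a gel, so members lie just below the stated size range. The values were CPM made by the authors. Whole reads recovered from them gave a depth of 10484940 and 11388999 reads for the young and of 10575080 and 9067007 reads for the old mice. The labels do not tie a library to an animal, so p-values measure the spread between these libraries, which may be technical. The tissue's markers were present, with all 8 neuronal miRNAs in the table at a summed level of 232564 to 268051 CPM per library. Of 9 blood and immune cell miRNAs, 7 were in the table, at 2404 to 4332 CPM.

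A mature miRNA sits in Ago with its 5′ end anchored in one pocket and its 3′ end in another, and the seed near the 5′ end selects the targets. Exonucleases can shorten the 3′ end while the seed stays in place. A read that begins at a later base has another seed and therefore another predicted set of targets. The study scored each 6mer seed by the viability of cell lines that received it in a screen, and a low viability marks a toxic seed.

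The following sequences show how the leading members sat in their miRNAs. Each pair gives the mature sequence of RefSeq (GRCm38.p6) and the most abundant 18-nt form in the table, with bases 2 to 8 in capitals. Of the 316 miRNAs with a member, 270 had a mature entry, and all 690 members of these miRNAs lay whole within it. In the first group the 18-nt form kept the 5′ start, so the capitals were the same in both lines, and let-7a-5p and let-7f-5p shared one seed.
let-7a-5p, mature: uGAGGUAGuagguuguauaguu
let-7a-5p, 18-nt form: tGAGGTAGtaggttgtat
let-7f-5p, mature: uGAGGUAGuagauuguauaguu
let-7f-5p, 18-nt form: tGAGGTAGtagattgtat
miR-23a-3p, mature: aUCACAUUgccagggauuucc
miR-23a-3p, 18-nt form: aTCACATTgccagggatt
miR-139-5p, mature: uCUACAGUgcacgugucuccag
miR-139-5p, 18-nt form: tCTACAGTgcacgtgtct
miR-24-3p, mature: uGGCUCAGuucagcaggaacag
miR-24-3p, 18-nt form: tGGCTCAGttcagcagga
miR-128-3p, mature: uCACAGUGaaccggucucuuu
miR-128-3p, 18-nt form: tCACAGTGaaccggtctc
miR-144-3p, mature: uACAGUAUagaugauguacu
miR-144-3p, 18-nt form: tACAGTATagatgatgta
miR-222-3p, mature: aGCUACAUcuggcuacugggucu
miR-222-3p, 18-nt form: aGCTACATctggctactg
miR-338-3p, mature: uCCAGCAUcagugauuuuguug
miR-338-3p, 18-nt form: tCCAGCATcagtgatttt

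In the second group the most abundant 18-nt form began 3 or 4 bases later than the mature miRNA, so another stretch stood at bases 2 to 8.
miR-132-3p, mature: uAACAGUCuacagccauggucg
miR-132-3p, 18-nt form: aGTCTACAgccatggtcg
miR-204-5p, mature: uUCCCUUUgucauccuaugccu
miR-204-5p, 18-nt form: cTTTGTCAtcctatgcct
miR-9-5p, mature: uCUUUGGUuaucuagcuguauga
miR-9-5p, 18-nt form: tTGGTTATctagctgtat
miR-451a, mature: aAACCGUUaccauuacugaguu
miR-451a, 18-nt form: cGTTACCAttactgagtt

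These mature sequences lie, on GRCm38.p6, at chr13:48538239-48538260 for let-7a-5p (Mirlet7a-1, in an exon of the long non-coding RNA 6720427I07Rik), and at chr8:84208563-84208583 for miR-23a-3p (Mir23a, in no other annotated gene). The mature miR-139-5p lies at chr7:101475382-101475403 in an intron of Pde2a, miR-338-3p at chr11:120014781-120014802 in an intron of Aatk, and miR-204-5p at chr19:22750610-22750631 in an intron of Trpm3. The mature miR-144-3p at chr11:78073047-78073066 and miR-451a at chr11:78073186-78073207 are neighbours outside other genes, and miR-132-3p lies at chr11:75173723-75173744 in an intron of 1700016P03Rik. The mature miR-222-3p is at chrX:19146901-19146923. Several of the miRNAs are made from more than 1 locus. let-7f-5p lies at chr13:48537889-48537910 and chrX:151912353-151912374, miR-24-3p at chr8:84208875-84208896 and chr13:63301251-63301272, miR-128-3p at chr1:128202404-128202424 and chr9:112118644-112118664, and miR-9-5p at chr3:88215613-88215635, chr7:79505279-79505301 and chr13:83738821-83738843. The gene context is that of GENCODE vM21.

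The members were a small part of the miRNA reads and took a larger part at 18 months in all 4 comparisons of libraries. They made up 0.255% and 0.235% of the miRNA reads at 2 months and 0.285% and 0.308% at 18 months. The 95% Wilson intervals, which cover counting error only, ran from 0.232% to 0.258% at 2 months and from 0.282% to 0.312% at 18 months. The ages did not overlap, with means of 0.245% ± 0.0140 (SD, n = 2) and 0.297% ± 0.0162 (SD, n = 2) and an exact permutation p of 0.33, two-sided, the smallest that 2 libraries against 2 allow. Without miR-124-3p the shares were 0.227% and 0.216% against 0.241% and 0.252%, a difference of 0.0249 percentage points in place of 0.0522. The share of miRNA reads of 19 nt, with miR-124-3p included, did not move the same way. It was 3.75% and 3.70% at 2 months and 3.70% and 3.14% at 18 months. Much of this length was miR-124-3p, with 21601, 20378, 18106 and 12544 CPM (2 months replicates 1 and 2, then 18 months replicates 1 and 2). All miRNA reads of 19 nt came to 36231, 35746, 35755 and 30308 CPM in the same order. The 19-nt reads of the other miRNAs were thus higher in each 18-month library than in each 2-month library.

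The length of 18 nt stood at a steep edge for miRNAs. From 19 to 18 nt the CPM of sequences with a miRNA name fell by a ratio of 10.2 to 15.8 in the 4 libraries. That of sequences without a miRNA name fell by 1.23 to 1.30, a value pooled over unlike classes. The ratio was 0.824 to 0.971 for tRNA fragments, which is a rise, 1.31 to 2.47 for rRNA fragments and 2.28 to 2.98 for mRNA fragments. The size selection acts on all sequences of a library, and its part in the number of members was not tested. Forms that kept the 5′ start fell from a mean of 31492 CPM at 19 nt to 1778 CPM at 18 nt. Forms that kept the 3′ end only fell from 601 to 306 CPM, so the 2 kinds of shortened read were lost at different rates between these lengths.

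Most member reads, but not most member sequences, were shortened at the 3′ end only. Of the 791 sequences, 257 had lost bases at the 3′ end only, 170 at the 5′ end only and 307 at both ends. Reads that kept the 5′ start of the miRNA's most abundant sequence made up 66.4% and 65.7% of the member reads at 2 months and 64.4% and 74.3% at 18 months. The ages overlapped (exact permutation p = 1, two-sided), and 18 months replicate 2 stood apart from the other 3 libraries. Without that library the difference between the ages turned from 3.25 to -1.68 percentage points. Reads that had lost bases at the 5′ end only made up 10.5% to 12.3% of the member reads, and reads that had lost bases at both ends 13.8% to 22.0%. Of the CPM in 3′-trimmed members, 39.9% had lost 3 bases, 36.5% had lost 4 and 13.7% had lost 5. A kept 5′ start was less frequent among members than at other lengths, since 87.7% to 94.8% of the miRNA reads of 19 to 23 nt began with the first 15 bases of the most abundant sequence.

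The member reads were concentrated in few miRNAs. The 12 miRNAs with the most member reads held 56.6% of the member CPM and 34.6% of all miRNA CPM, and the 12 most abundant members held 49.4%. The neuronal miR-124-3p led with 3 members. Their summed level went from 499 and 414 CPM in young to 670 and 715 CPM in old brains, or from 20.3% and 18.2% to 24.3% and 24.03% of the member reads. Both 18-month libraries were above both 2-month libraries, while the total of miR-124-3p was lower there, at 104115 and 107034 CPM in young and 98222 and 69405 CPM in old brains.

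The 3 members of miR-124-3p did not move together. The form that kept the 5′ start and had lost 3 bases stood at 281, 224, 371 and 585 CPM in the 4 libraries, given here and from here on as 2 months replicates 1 and 2 and then 18 months replicates 1 and 2. The form that began 1 base later stood at 183, 159, 261 and 110 CPM, with its lowest value in the library where the first form was highest. The form that began 2 bases later had a mean of 30.9 CPM. The seed viability of the first 2 forms was 57.3 and 30.4 on the scale of the study, in percent of the control. The 2 most abundant members are therefore one and the same miRNA with a different seed.

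After miR-124-3p came miR-23a-3p, with a summed member level of 120, 105, 158 and 137 CPM, and the let-7 member let-7a-5p, with 118, 97.0, 128 and 122 CPM. Both were higher in each 18-month library than in each 2-month library, by a smaller step for let-7a-5p. The 18-nt form of miR-23a-3p lies whole in miR-23b-3p too, and that of let-7a-5p lies whole in let-7c-5p, so the name cannot be told apart at this length. Of the 791 members, 14 lay in 2 miRNAs, and these held 11.4% of the member CPM. With the names put together, the mean share of 18-nt reads was 0.819% for miR-23a-3p and miR-23b-3p in place of 2.39%, and 0.356% for let-7a-5p and let-7c-5p in place of 0.793%.

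The next miRNAs kept their 5′ start in most reads. miR-139-5p stood at 108, 120, 102 and 102 CPM of member reads, miR-26a-5p at 85.2, 75.2, 136 and 111 CPM, and let-7f-5p at 84.3, 74.5, 86.9 and 77.1 CPM. The ages overlapped for let-7f-5p and not for miR-139-5p or miR-26a-5p. miR-127-3p, which lies in the imprinted Dlk1-Dio3 region, stood at 64.9, 53.5, 19.95 and 82.3 CPM, with its lowest and its highest value in the 2 replicates of 18 months. miR-27b-3p stood at 50.5, 41.3, 46.1 and 64.2 CPM, where the ages overlapped, and its leading form lies whole in miR-27a-3p too. Of the member CPM, 94.8% kept the 5′ start in miR-139-5p, 74.97% in miR-26a-5p, 94.6% in let-7f-5p and 95.3% in miR-24-3p. In miR-127-3p 90.6% kept it, and in miR-27b-3p 88.1%.

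Other abundant miRNAs were found mainly without their 5′ start. For miR-132-3p, a miRNA induced by neuronal activity, 6.79% of the member CPM kept it. Its leading form had lost 4 bases at the 5′ end and stood at 42.1, 29.2, 48.9 and 62.3 CPM, above its other forms in every library. The form with 1 more base at the 5′ end and 1 less at the 3′ end went the other way, at 4.67, 5.18, 1.32 and 1.21 CPM (log2 change -1.38 ± 0.33 (SE), limma adjusted p = 0.257). For miR-9-5p, a brain miRNA, 16.9% of the member CPM kept the 5′ start, and for miR-125b-5p 33.5% did. miR-204-5p, abundant in choroid plexus, was read as the form without its first 4 bases at 22.3, 14.8, 14.8 and 24.6 CPM, while its 5′-start form had a mean of 0.313 CPM. Over the 153 miRNAs with at least 1 CPM of members, 96 had over 50% of this CPM in forms with the 5′ start, and 10 had none. A form that lies in 2 miRNAs carries only 1 name, which lowers this count for the other miRNA. let-7c-5p and miR-30c-5p had none, while the 18-nt form with their 5′ start was named let-7a-5p and miR-30b-5p.

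The share of a miRNA's reads that were 18 nt long varied widely. Over the 273 miRNAs at 100 CPM or more on average, the median share was 0.138%, with quartiles of 0.0747% and 0.298%, and 14 miRNAs reached 1%. Across these miRNAs the shares of replicate libraries had a Spearman rho of 0.688 at 2 months and 0.730 at 18 months, and those of libraries of different age 0.664 to 0.730. This is a description across miRNAs, which share depth and library and are not independent. The order of the miRNAs by share was thus as alike between the ages as within an age.

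Among the 273 miRNAs of 100 CPM or more, the highest share was that of miR-144-3p, an erythroid miRNA transcribed with miR-451a. It was 7.10%, 4.29%, 5.27% and 3.75% in the 4 libraries, which overlap between the ages. Its mature form is only 20 nt long and its 19-nt reads reached 118 to 375 CPM, against 18.6 to 67.2 CPM at 18 nt. The next were miR-134-5p with a mean of 2.78%, miR-378a-3p with 2.71%, miR-434-5p with 2.49%, miR-23a-3p with 2.39% under its own name and miR-700-3p with 2.31%. Below this level, miR-666-5p (mean 60.3 CPM) reached a share of 7.78% and miR-490-5p (83.7 CPM) one of 5.55%, and both are named after their values were seen. For the age difference in the ratio of 18-nt reads to other reads, the limma adjusted p of the 6 miRNAs of 100 CPM or more ran from 0.436 to 0.999, and miR-23a-3p passed before adjustment with a log2 change of 0.48 ± 0.23 (SE).

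Shares were higher for miRNAs with a short main form. The median was 0.574% over the 13 miRNAs whose most abundant sequence had 20 nt, 0.150% over 77 with 21 nt, 0.130% over 145 with 22 nt and 0.0903% over 36 with 23 nt. The arm of the hairpin made little difference, with medians of 0.143% for 129 miRNAs of the 5p arm and 0.134% for 140 of the 3p arm.

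At the other end, 27 of the 273 miRNAs had no member at all. The most abundant of them were miR-411-5p (mean 1581 CPM), miR-425-5p (1028 CPM), miR-666-3p (640 CPM), miR-92a-3p (614 CPM), miR-770-5p (429 CPM) and miR-32-5p (327 CPM). These 6 were taken by their abundance because all 27 tie at 0. The authors removed rare reads, and the least abundant sequence of the table had 4 reads over the 4 libraries, so a form with fewer reads is not seen. miR-411-5p had no read of 18, 19 or 20 nt, while its 21-nt reads stood at 605 to 986 CPM and its 22-nt reads at 584 to 972 CPM. In the table its lengths stopped between 21 and 20 nt, while the reads of miR-425-5p went down over 21 nt (64.4 to 72.9 CPM), 20 nt (5.07 to 10.3 CPM) and 19 nt (0.661 to 1.76 CPM). Whether shorter reads of miR-411-5p were removed or named otherwise in the authors' processing was not tested.

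Between the ages, single members moved about as often as other sequences. At an unadjusted p under 0.05 in limma, 30 of the 228 members tested passed, or 13.2%, against 10.1% of all 14287 sequences tested and 11.2% of the 9712 longer sequences with a miRNA name. Of the 30, 23 were higher at 18 months, or 10.1% of the members against a background of 5.87%, and 7 were lower, or 3.07% against 4.23%. No member passed an adjusted p under 0.05 in limma, where the smallest was 0.125 and 6 of all sequences passed, or 0.042%. In edgeR 26 members passed before adjustment, or 11.4% against 9.52% of all sequences, and 0 after it, against 0.021% of all sequences. In DESeq2 24 members passed before adjustment, or 10.5% against 6.59% of all sequences. DESeq2 gave no adjusted p for 104 members of low count, and 2 of the others passed after adjustment, or 1.61%, near the 1.22% of all 7639 sequences that had one. The median log2 change of the members tested was 0.15, against -0.01 over all sequences. The ages did not overlap for 100 members, or 43.9%, against a background of 41.7%.

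The 2 members that DESeq2 called were the 5′-start forms of miR-222-3p and miR-30e-5p. The form of miR-222-3p stood at 3.05, 1.76, 11.8 and 13.1 CPM, so both 18-month values were above both 2-month values (log2 change on the CPM + 1 scale 2.01 ± 0.35 (SE), limma adjusted p = 0.125, DESeq2 adjusted p = 0.00237). miR-222-3p is clustered with miR-221-3p. The form of miR-30e-5p stood at 4.20, 5.62, 8.70 and 38.7 CPM, and its highest value came from 18 months replicate 2 alone (log2 change 1.74 ± 0.57 (SE), limma adjusted p = 0.378, DESeq2 adjusted p = 0.0246). Fellow miR-30 members with the same seed were higher at 18 months too, at 3.91, 5.27, 7.94 and 20.1 CPM for miR-30a-5p and 12.9, 14.6, 23.1 and 30.6 CPM for miR-30d-5p (limma adjusted p = 0.380 and 0.403). Their forms that began 1 base later stood at 4.29, 2.46, 4.35 and 2.21 CPM for miR-30a-5p and 9.16, 12.7, 9.36 and 5.07 CPM for miR-30d-5p, where the ages overlapped. Summed over the 5 members with this seed, the level was 28.3, 33.5, 61.5 and 107 CPM, with no overlap between the ages. The totals of some of these miRNAs were higher at 18 months too. That of miR-30e-5p was 6733, 7654, 8198 and 10149 CPM, and that of miR-30a-5p 7060, 6779, 8048 and 9202 CPM. The total of miR-30b-5p was 6145, 5735, 7010 and 8994 CPM. For miR-30d-5p, at 14648, 11542, 14897 and 12174 CPM, the ages overlapped. The let-7 seed, carried by 8 members, gave 312, 269, 299 and 297 CPM, where the ages overlapped.

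The ratio of 18-nt reads to the other reads of the same miRNA asks whether the part of 18-nt reads changed apart from the level of the miRNA. This length lies just below the stated size range, and the part of each library's size selection in the ratio was not tested. Over the 153 miRNAs tested, 15 passed an unadjusted p under 0.05 in limma, or 9.8% of the miRNAs, 11 with a higher and 4 with a lower ratio at 18 months. The median log2 change of the ratio was 0.23, and 103 of the 153, or 67.3%, were above 0. Taken relative to this median, 10 passed, 4 higher and 6 lower. The ages did not overlap for 63 miRNAs, or 41.2%, 54 of them higher at 18 months. The count of 15 was 4 without 18 months replicate 2 and 23 without 2 months replicate 1.

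After adjustment 2 miRNAs, or 1.31%, passed in limma, miR-124-3p and miR-338-3p. The share of 18-nt reads of miR-124-3p was 0.480%, 0.386%, 0.682% and 1.03%, and both 18-month libraries were above both 2-month libraries (log2 change of the ratio 0.97 ± 0.15 (SE), limma adjusted p = 1.9e-06). Its adjusted p was 0.514 in limma without the variance trend and 0.476 in edgeR. In limma it was 0.153 and 0.399 with 0.1 and 5 CPM added in place of 1. With at least 10 CPM of 18-nt reads it was 0.213, and with no filter on these reads 0.0468. Relative to the median change it was 0.00088, and with shared names joined 0.000525. Without 18 months replicate 2, the library that also had the lowest total of this miRNA, the log2 change was 0.67. The share of miR-338-3p, a miRNA of oligodendrocytes that lies in Aatk, was 0.175%, 0.108%, 0.518% and 0.332% (log2 change 1.47 ± 0.41 (SE), limma adjusted p = 0.0429). It passed after adjustment with neither edgeR (adjusted p = 0.476) nor limma without the trend (adjusted p = 0.279). In limma its adjusted p was 0.388 and 0.399 with 0.1 and 5 CPM added in place of 1. With at least 10 CPM of 18-nt reads it was 0.213, and with no filter on these reads 0.110. Relative to the median change it was 0.166, and with shared names joined 0.123. With 19 to 24 nt reads as reference it was 0.0420. With each library left out the log2 change was 1.15 to 1.80. Its 19-nt reads stood at 24.9, 15.6, 47.8 and 48.6 CPM and its 20-nt reads at 259, 132, 363 and 454 CPM, both higher at 18 months, while its 22-nt reads stood at 3691, 2656, 1334 and 3137 CPM and overlapped.

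The next largest rises of the ratio at an unadjusted p under 0.05 and with no overlap between the ages were those of miR-485-5p, miR-145a-5p, miR-222-3p and miR-674-3p. The share of miR-145a-5p, a miRNA of smooth muscle, was 0.234%, 0.202%, 0.379% and 0.633% (log2 change of the ratio 1.08 ± 0.41 (SE), limma adjusted p = 0.342). That of miR-222-3p was 0.0537%, 0.0663%, 0.107% and 0.161% (log2 change 1.02 ± 0.40 (SE), limma adjusted p = 0.346). For miR-485-5p and miR-674-3p the members had 2.76 CPM or less in each library, and the limma adjusted p was 0.436 for both. Of the 4 falls, 3 had ages that did not overlap, those of miR-598-3p, miR-451a and miR-191-5p. The other was that of miR-674-5p, whose share of 0.321%, 1.62%, 0.366% and 0.209% overlapped between the ages (log2 change -1.34 ± 0.50 (SE), limma adjusted p = 0.342), and it is named after its values were seen. The share of miR-451a, an erythroid miRNA cut by Ago2 in place of Dicer, was 0.836%, 0.427%, 0.302% and 0.275% (log2 change -0.94 ± 0.42 (SE), limma adjusted p = 0.436). Its members were 14.6% with the 5′ start, the rest beginning 4 bases later.

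Groups of miRNAs were described by the same ratio, beside its median of 0.23 and the 15 called, or 9.8%, over all 153. The lists are small, so 1 miRNA called is a large share of a list. In the let-7 family of tumour suppressors, 0 of 9 passed an unadjusted p under 0.05 in limma and 8 had a log2 change above 0 (median 0.22). Of 8 neuronal miRNAs, 3 passed, all higher (median 0.68), and they were miR-124-3p, miR-132-3p and miR-138-5p. The share of miR-132-3p was 0.135%, 0.123%, 0.159% and 0.253%, that of miR-138-5p 0.379%, 0.164%, 0.389% and 0.440%, and both had a limma adjusted p of 0.436. miR-9-5p and miR-9-3p had log2 changes of 0.07 and -0.01. Of 4 oligodendrocyte miRNAs 1 passed (median 0.28), and of 4 vascular miRNAs 1 passed (median 0.69). The summed level of the vascular list was 18658 and 18031 CPM in young and 10455 and 13905 CPM in old brains. Within it, miR-126a-3p stood at 9242 and 8854 CPM in young and 2557 and 6489 CPM in old brains. miR-143-3p and miR-145a-5p were also lower in each 18-month library than in each 2-month library. The other arm, miR-126a-5p, stood at 3000, 2618, 2865 and 2501 CPM, where the ages overlapped. In bulk tissue fewer cells of a type and less RNA per cell cannot be told apart.

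Of the blood and immune cell miRNAs, miR-144-3p and miR-451a were deep enough for the test, and miR-451a passed, lower at 18 months. The members of miR-144-3p stood at 65.2, 67.2, 18.6 and 42.6 CPM, with no overlap between the ages, and the miRNA as a whole at 919, 1564, 354 and 1134 CPM, with overlap. Its 5′-start form had a log2 change of -1.19 ± 0.40 (SE) at a limma adjusted p of 0.380. The 7 blood and immune cell miRNAs in the table summed to 2465, 4332, 2404 and 3560 CPM, where the ages overlapped, and the part of blood in the tissue was not tested. Of the 4 miRNAs made without Dicer or Drosha, 2 were tested. They were miR-451a and miR-320-3p, whose share was 0.160%, 0.181%, 0.132% and 0.117% (log2 change -0.27 ± 0.47 (SE), limma adjusted p = 0.857).

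Target-directed degradation is a process in which a target with wide pairing exposes the 3′ end of a miRNA and marks its Ago for decay, and trimmed forms are known to go with it. Of 5 miRNAs known as its substrates, 3 were tested and none passed an unadjusted p under 0.05 in limma, with a median log2 change of the ratio of 0.55. miR-29b-3p, a substrate in brain, had a share of 0.0938%, 0.0364%, 0.0765% and 0.0496%, and a log2 change of 0.01 ± 0.42 (SE). The median share was 0.138% over the miRNAs of 100 CPM or more. It was 0.0903% over the 36 of them whose most abundant sequence had 23 nt, as that of miR-29b-3p does. miR-30b-5p had 0.191%, 0.204%, 0.397% and 0.240%, and miR-30c-5p 0.0595%, 0.0588%, 0.111% and 0.0777%, and for both the ages did not overlap. The 5′-start form of miR-30b-5p lies whole in miR-30c-5p as well, and the share of both miRNAs together was 0.110%, 0.110%, 0.225% and 0.141%. Of 5 relatives in the same families none passed either (median 0.64). Among them miR-29a-3p had 0.0786%, 0.0462%, 0.109% and 0.0864%, and miR-30e-5p 0.190%, 0.155%, 0.190% and 0.455%. The mean shares ran from 0.0640% to 0.258% for the substrates tested and from 0.0729% to 0.259% for the relatives, so the ranges overlapped.

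The read-weighted mean seed viability of the members was slightly below that of the other miRNA reads in each library. It was 55.9, 57.5, 55.4 and 57.4 for members, and 57.8, 58.0, 58.1 and 58.5 for the other miRNA reads. The members' means overlapped between the ages (exact permutation p = 0.667, two-sided), with a difference of -0.33 for 18 months minus 2 months. Members that began later than their miRNA had a mean of 54.1, 55.3, 52.8 and 57.5, while the most abundant sequences of the same miRNAs, weighted alike, had 62.6, 61.6, 61.2 and 61.3. The read-weighted mean of the later-start members was thus below that of these sequences in all 4 libraries. The miR-124-3p form that began 1 base later weighs on this mean and on that of all members. Its seed viability was 30.4, and it stood at 183, 159, 261 and 110 CPM, or 6.81% of the member CPM. Means without this form were not taken, so neither gap can be read as a trait of the members apart from it. Single miRNAs went both ways. The form of miR-451a without its first 4 bases had a seed viability of 18.6 against 58.3 for its 5′-start form, and the shifted form of miR-9-5p had 80.4 against 60.9.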

How the data were processed

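The authors made the values with their SPOROS pipeline, and the submitters' processing notes name Trim Galore for trimming (version not given in the sources used here). A sequence got its miRNA name by BLAST, and the table holds neither rare sequences nor those that BLAST gave as artificial. The authors deposited CPM per sequence and library, with a summed column as other value and a viability score per 6mer seed, the authors' mean of 3 mouse cell lines. Whole reads were recovered: 100% of the nonzero values came within 0.0005 CPM of a whole multiple of 1 read. Libraries were assigned by their titles, and 0 per-sample columns stayed unassigned.

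limma 3.58.1 (R 4.3.3) was fitted two-sided to log2(CPM + 1) with an intensity trend for every sequence at 1 CPM or more on average. It was also fitted to log2 of the CPM of 18-nt reads plus 1 over that of other reads plus 1, for miRNAs with 10 CPM or more in all and 1 CPM or more of 18-nt reads on average, with a trend on the level of the 18-nt reads. Age was the only term, and p-values were adjusted by Benjamini-Hochberg over all items tested. Calls at an unadjusted p under 0.05 follow the study's threshold for rows, for which its methods name no test. Single values of the libraries were tested by exact permutation in scipy 1.17.1, and intervals are 95% Wilson intervals from statsmodels 0.14.6. The scripts were tested on simulated counts. edgeR 4.0.16 and DESeq2 1.42.0 on the recovered reads, other pseudocounts, filters, scalings and references, a replicate block and each library left out were the alternatives.

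The members, the miRNA lists and the tests were chosen with earlier results of these data known. The text names the 12 miRNAs and the 12 sequences with the most member reads, and the 6 highest and 6 lowest shares. It also names up to 5 rises and 5 falls of the ratio and the lists, of which not every miRNA is named singly. Forms within these miRNAs, and miR-204-5p and the forms called by DESeq2, were chosen after their values were seen. The start and end of a member were set against the most abundant sequence of its miRNA in the table. Positions and mature sequences are those of RefSeq on GRCm38.p6, and the genes around them those of GENCODE vM21. The build behind the authors' lists was not needed, because only sequences were matched.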

Additional observations from a re-analysis of the deposited data

Results flagged for a closer look

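Sequences of 15 to 17 nt never carried a miRNA name, but 1060 of them lay whole within the most abundant sequence of a miRNA. They are outside the comparisons because the name is missing, and they summed to a mean of 981 CPM (983, 914, 1083 and 943 CPM in the 4 libraries, which overlap between the ages). At 17 nt 104 CPM kept the 5′ start and 260 CPM the 3′ end only, against 1778 and 306 CPM at 18 nt, so the 3′-trimmed forms that led at 18 nt were in the minority below it. At 15 nt the means were 18.9 and 98.6 CPM.

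In the same way 42 sequences of 18 nt lay within the most abundant sequence of a miRNA and had no miRNA name, at a mean of 84.5 CPM (79.8 to 90.6 CPM). They are missing from the members, whose named sequences all matched the mature form where it was known.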

How the results depend on the processing

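The count of 30 members passing an unadjusted p under 0.05 was 72 with no filter on low values, 8 when only sequences of 10 CPM or more were tested, 0 at an adjusted p and 22 to 31 under the other alternatives and with each library left out (22 to 30). The count of 15 miRNAs for the ratio was 6 with at least 10 CPM of 18-nt reads, 52 with no filter on these reads, 8 in edgeR and 2 at an adjusted p, and 4 to 23 with each library left out. Filters change how many items are tested, and for edgeR the cause was not tested. With the replicate block, 31 members and 20 miRNAs passed. The replicate numbers did not pair the libraries (correlation of the deviations of same-numbered libraries -0.02 for members and -0.08 for ratios), so the block result is given only here. edgeR with the block gave 30 members, and miRNAs that share a form put together gave 14 miRNAs, both alternatives chosen after seeing the data. The difference in the share of miRNA reads was 0.0221 percentage points as an unweighted mean over miRNAs of at least 100 CPM and 0.0249 without miR-124-3p, also chosen after seeing the data, and 0.0408 to 0.0637 with each library left out. The difference in the share that kept the 5′ start was -1.68 to 8.19 percentage points with each library left out, and that in viability -1.32 to 0.67 (0.517 without 2 months replicate 2 and 0.665 without 18 months replicate 1). Over 129 alternative values for the 9 miRNAs named for their ratio, none changed direction and 40 no longer passed an unadjusted p under 0.05. The ages did not overlap for these miRNAs, so leaving out a library could not turn the direction. The unchanged direction is therefore no separate support.

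A length class of 15 to 17 nt gave no value, because no such sequence has a miRNA name. The tests per library are exact permutation tests that cannot go below p = 0.33, and 2 libraries per age leave small changes of rare members undetectable. Forms under 4 reads in all are not in the table. Levels near 1 CPM rest on about 9 to 11 reads per library.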
